A study of Drosophila melanogaster with 27 samples.

Results

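Pof, named for painting the fourth chromosome, encodes a protein with an RNA-binding domain that binds chromosome 4 of Drosophila melanogaster, a small chromosome rich in heterochromatin. The protein coats the transcribed genes of that chromosome together with heterochromatin protein 1, and its binding makes chromosome 4 the best known autosome with a chromosome-wide regulator of its own. In females the X chromosome is not bound by the dosage compensation complex, so chromosome 4 can be read against all other arms of the same flies.

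The comparison set 3 arrays labelled pof-mutant against 3 arrays labelled wild type, 6 of the 27 arrays in the series, to ask which transcripts differ when Pof is mutated and chromosome 4 is present in 2 copies. The pof-mutant females were homozygous for the allele Pof D119 and came from a stock of that genotype that also carried the markers y1 w67c23. The wild type females were of the y1 w67c23 strain, so those markers were shared, but each group came from a stock of its own, and differences between the stocks cannot be told apart from the effect of the allele. RNA of 10 females, at most a day old, was pooled for each replicate, and the labels call the replicates biological. The pof-mutant triplo 4th arrays, cited beside some genes, are of females with 3 copies of chromosome 4, from a cross of the mutant stock to flies that carried a mutant Pof allele over the balancer CyO and the compound chromosome C(4)RM, and 18 further arrays cover 6 genotypes from other crosses.

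All levels are log2 values from the deposited table, shifted by 1 constant per array until the mean level of the expressed genes was the same in every array. A log2 ratio is an array or a group minus the mean of the wild type arrays. Of 11941 genes with a probe set of their own, 7386 had a wild type mean above 6 and were called expressed. A gene was called changed when limma gave a Benjamini-Hochberg adjusted p under 0.05 over these 7386 genes, with the spread estimated from all 27 arrays. A change was said to hold in all 3 arrays when the 3 pof-mutant levels did not overlap the 3 wild type levels. Whole flies were used, so fewer cells of a type and less RNA per cell cannot be told apart in any value below.

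The 3 pof-mutant arrays did not resemble each other, and replicate 2 lay farthest out. The SD of the log2 ratios over genes was 0.64, 1.43 and 0.44 in pof-mutant replicates 1, 2 and 3, against 0.17, 0.27 and 0.23 in wild type replicates 1, 2 and 3. At least 2-fold from the wild type mean stood 692, 3793 and 230 genes in pof-mutant replicates 1, 2 and 3, against 21, 51 and 22 genes in the wild type replicates. More than 1 expressed gene in 2 (51.4%) was therefore 2-fold off in pof-mutant replicate 2, and 3077 genes were 2-fold off in that array alone, 1731 higher and 1346 lower.

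**Figure D1:**
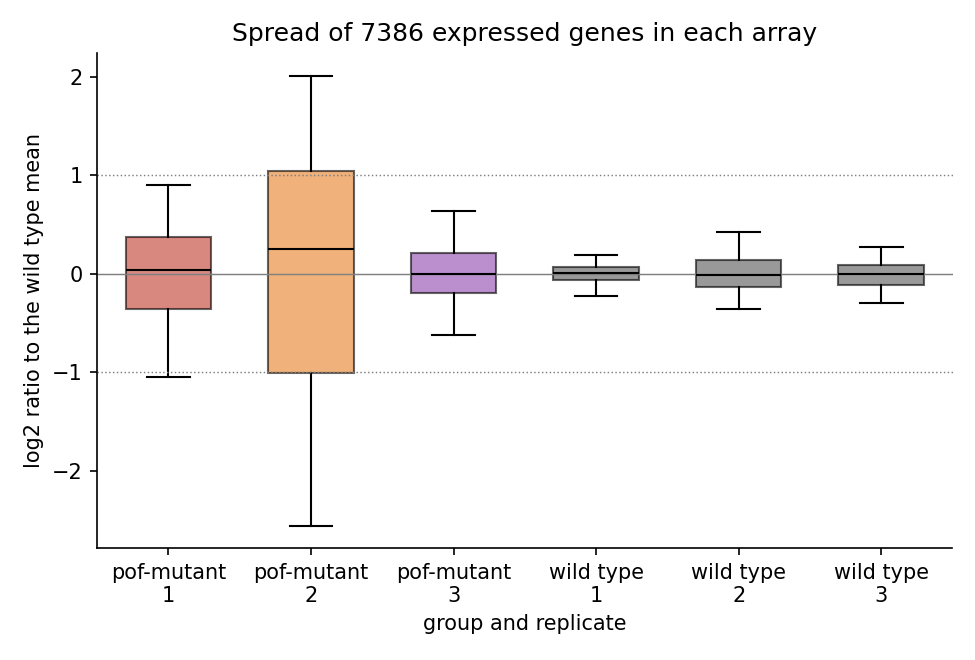
Log2 ratio to the wild type mean of 7386 expressed genes in each of the 3 pof-mutant and 3 wild type arrays; boxes span the quartiles with the median as a line, whiskers run between percentiles 5 and 95, and dotted lines mark a 2-fold difference. The SD was 1.43 in pof-mutant replicate 2, against 0.64 and 0.44 in the other 2 pof-mutant arrays and at most 0.27 in wild type.

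Replicates 1 and 2 departed from wild type in a shared direction, and replicate 3 did not follow it. Across the 7386 genes, which are not independent and share the wild type mean as their base, the Pearson correlation of the log2 ratios was 0.75 between replicates 1 and 2, 0.23 between replicates 1 and 3 and 0.08 between replicates 2 and 3. Levels correlated at 0.82, 0.90 and 0.62 in the same order of pof-mutant pairs, against 0.95 to 0.98 among the wild type arrays. On 1 side of the wild type mean in all 3 arrays were 1660 genes over it and 1228 genes under it, while 4498 genes (60.9%) lay on different sides. Only 5 genes were 2-fold or more high in replicates 1 and 3 and 2-fold or more low in replicate 2. These were the chorion genes Cp15, Cp36 and Cp38, yellow-g, which acts in eggshell formation, and CG13962. Wild type arrays also differed widely for these genes, with 5.86, 5.50 and 12.96 for Cp36. Replicate 2 of pof-mutant, at 5.36 for Cp36, was thus low against the wild type mean but close to wild type replicates 1 and 2.

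**Figure D2:**
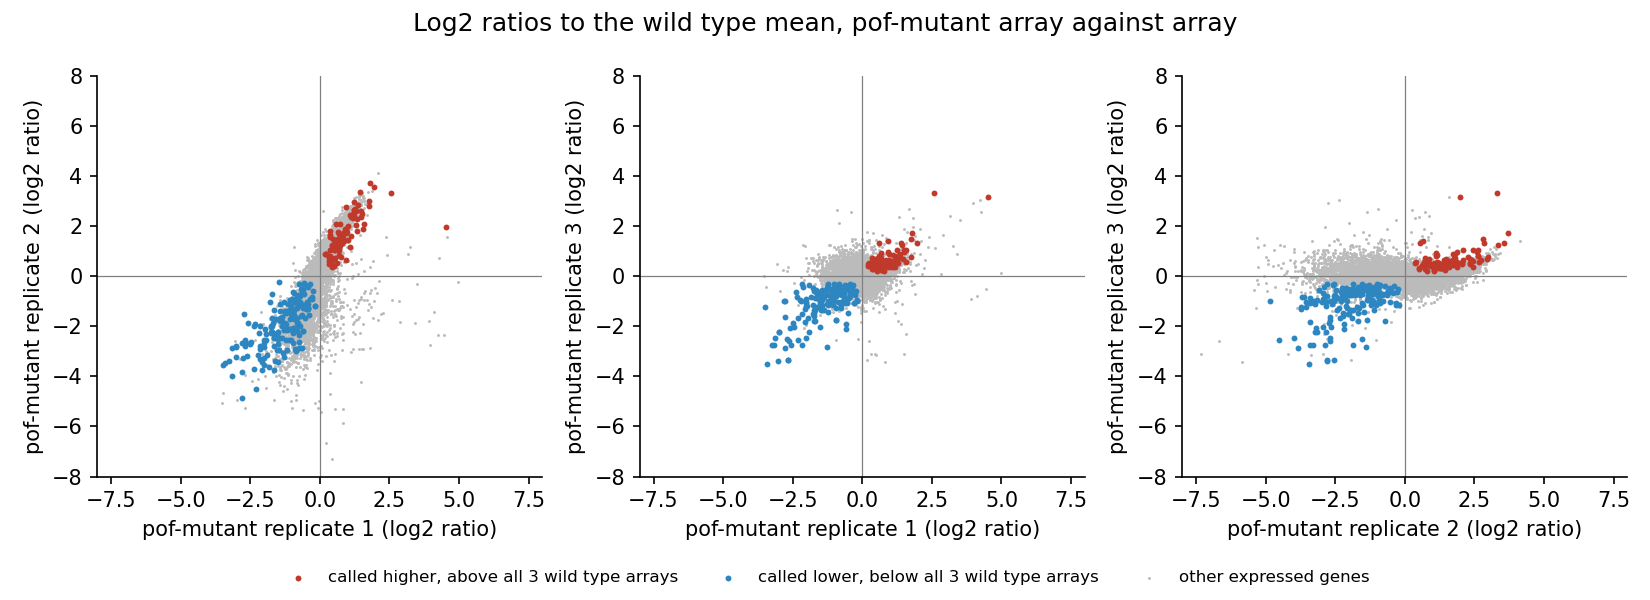
Log2 ratio to the wild type mean in 1 pof-mutant array against another, for 7386 expressed genes; red points are the 98 genes called higher and above all 3 wild type arrays, blue points the 176 called lower and below them, grey points the other genes. The grey cloud is elongated for replicates 1 and 2 (r = 0.75) and lies flat along the axis of replicate 2 in the right panel (replicates 2 and 3, r = 0.08). The coloured genes lie on the same side in each panel because they were chosen that way, which is no measure of agreement.

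Against this spread, 279 genes (3.78% of 7386) were called, 100 higher (1.35%) and 179 lower (2.42%) in pof-mutant. All 3 pof-mutant arrays were above all 3 wild type arrays for 934 genes (12.6%) and below them for 645 (8.73%), 1579 in all (21.4%). Nearly all calls held in this sense, 98 of the 100 higher and 176 of the 179 lower. Size was shared out unequally among the arrays, since the largest of the 3 differences was that of replicate 2 in 94 of the genes called higher and in 137 of those called lower, and the smallest was that of replicate 3 in 190 of the 279. A difference of at least 2-fold in each of the 3 arrays was seen for 17 genes over the wild type mean (0.23%), 10 of them called, and for 61 genes under it (0.826%), 55 of them called.

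The number of calls depended on single arrays. Without pof-mutant replicate 2, 35 genes were called higher and 88 lower, of which 26 and 79 were among those above. Without pof-mutant replicate 3 the counts were 2586 higher and 1765 lower and held all 279 genes, and without replicate 1 they were 194 and 254. Without wild type replicate 1, 2 or 3 they were 31 and 98, 33 and 100, and 29 and 91. Called in all 6 of these fits as well as with all arrays were 20 genes higher (0.271%) and 66 lower (0.894%). When limma took its spread from the 6 arrays alone, 1 gene was higher (0.0135%) and 15 were lower (0.203%), all among the 279.

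Chromosome 4 stood low in 2 pof-mutant arrays and inside the wild type range in the third. The mean log2 ratio over its 50 expressed genes was -0.56, -0.68 and -0.10 in pof-mutant replicates 1, 2 and 3 (mean -0.45, SD 0.30), against -0.03, 0.17 and -0.14 in wild type replicates 1, 2 and 3 (SD 0.16). Replicate 3 thus overlapped wild type replicate 3. Of the 50 genes, 37 lay under the wild type mean in replicate 1, 32 in replicate 2 and 27 in replicate 3, and 17 did so in all 3. Below all wild type arrays were 10 of the 50 (20.0%, against 8.73% of all expressed genes) and above them 3 (6.0%, against 12.6%). Called lower were 2, Zip102B and Pur-alpha, and 0 were called higher (19 lower and 5 higher at an unadjusted limma p under 0.05, which 35.8% of all expressed genes passed). Without pof-mutant replicate 3, 25 were called lower and 8 higher, against 1765 and 2586 of all 7386 expressed genes. Without any other of the 6 arrays at most 2 were called lower and 0 higher.

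In each of the 3 pof-mutant arrays the mean of chromosome 4 lay farther from 0 than that of any other arm, and the same was true of each wild type array. For X, 2L, 2R, 3L and 3R, the means in single pof-mutant arrays lay between -0.08 (2R, replicate 2) and 0.14 (X, replicate 2). Those arms held 1230 to 1812 expressed genes each, against 50 on chromosome 4.

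**Figure D3:**
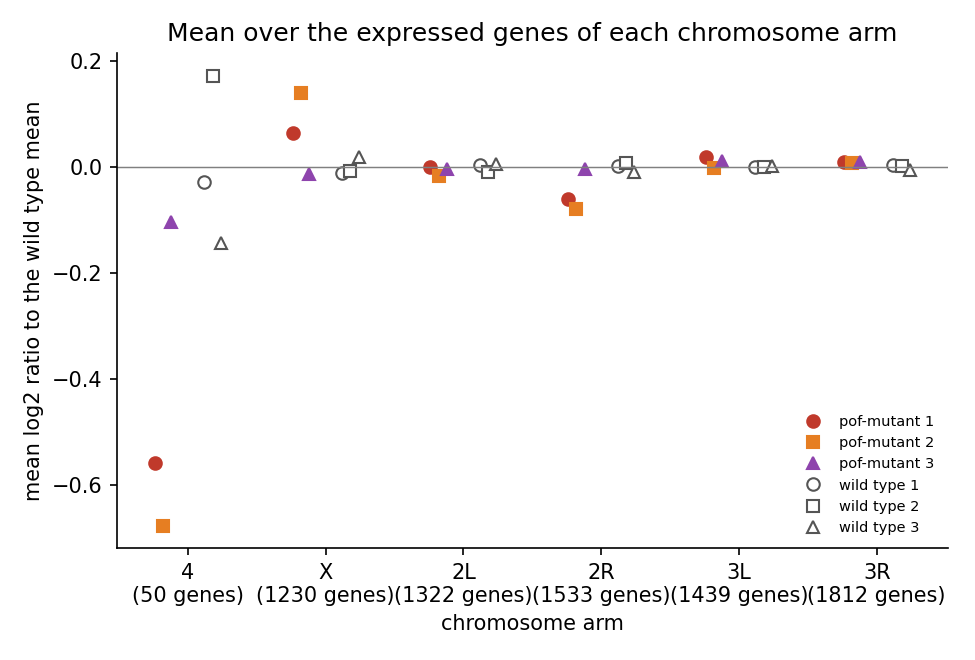
Mean log2 ratio to the wild type mean over the expressed genes of each chromosome arm, in the 3 pof-mutant arrays (filled, left) and the 3 wild type arrays (open, right). On chromosome 4, pof-mutant replicates 1 and 2 lay at -0.56 and -0.68, while replicate 3 at -0.10 lay within the wild type range of -0.14 to 0.17.

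The largest change on chromosome 4 was that of Zip102B, a member of the ZIP family of zinc transporters. Its levels were 6.19, 6.33 and 5.54 in pof-mutant replicates 1, 2 and 3, against 8.87, 8.98 and 8.74 in wild type. The groups were far apart and the farthest pof-mutant array was replicate 3, not replicate 2. It fell by 2.84 on the log2 scale (SE 0.16, limma adjusted p = 5.68e-10), to 13.9% of wild type, and it was called in each of 18 other settings of the analysis. Its pof-mutant levels lay near or under 6, and the paper treats only levels above 6 as reliably measured. This limits what the size of the fall can show. The pof-mutant triplo 4th arrays, which carry the same allele with 3 copies of chromosome 4 and were set against the same wild type arrays, had 6.06, 5.95 and 6.09, while the 18 arrays of the 6 other genotypes lay between 7.80 and 9.14.

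The other chromosome 4 genes below wild type in all 3 arrays had smaller log2 ratios than Zip102B. Pur-alpha, which encodes a single-stranded nucleic acid binding protein, had 7.89, 8.12 and 8.75 in pof-mutant arrays, against 9.19, 9.33 and 8.99 in wild type, and fell by 0.92 (SE 0.25, limma adjusted p = 0.0422). That call was lost without pof-mutant replicate 1 (adjusted p = 0.0828) or 2 (0.202) and without wild type replicate 1, 2 or 3 (0.120, 0.162 and 0.0757). The translation initiation factor gene eIF4G1 was close behind, with 10.97, 10.72 and 10.72 in pof-mutant, against 11.16, 11.22 and 11.26 in wild type (log2 ratio -0.41, SE 0.12, adjusted p = 0.0536). Replicate 3 of eIF4G1 was as low as replicate 2. For yellow-h, of the yellow gene family, replicate 3 was instead close to wild type, with 5.08, 3.85 and 6.46 in pof-mutant, against 6.87, 6.94 and 6.65 in wild type (adjusted p = 0.0815). CG33521 had 7.56, 5.95 and 8.92 in pof-mutant, against 9.26, 9.48 and 9.03 in wild type, and CG31999 had 7.95, 7.09 and 8.60, against 9.11, 9.50 and 9.001 (adjusted p = 0.0622 and 0.0557). Cals, CG11155, Tdg and Zyx, which encodes a focal adhesion protein, made up the rest, with log2 ratios of -0.93 to -0.26, and did not pass.

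Above wild type in all 3 arrays were CG11360, 4E-T, which encodes a translational repressor that binds the cap-binding protein, and Ephrin, which encodes the ligand of the Eph receptor. In each of them replicate 2 was by far the highest, as in 4E-T, with 10.11, 11.24 and 9.92 in pof-mutant, against 9.68, 9.53 and 9.75 in wild type. Their log2 ratios were 1.11, 0.77 and 0.58, and none passed (adjusted p = 0.110, 0.0906 and 0.135).

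The Pof probe set itself read higher in the arrays labelled pof-mutant. Its levels were 9.11, 11.04 and 8.93 in pof-mutant, against 7.69, 7.44 and 7.91 in wild type (log2 ratio 2.01, SE 0.46, limma adjusted p = 0.0172). Whether the allele lacks the stretch that these probes read is not given in the sources used here, so the value is no check of the labels, and every direction is that of arrays so labelled. The pof-mutant triplo 4th arrays had 7.09, 9.03 and 7.33, which overlapped the same wild type arrays. The call ended without pof-mutant replicate 2 (adjusted p = 0.140) and without wild type replicate 1 or 2 (0.0592 and 0.0733).

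Around Pof on 2R, 4 of the 10 nearest genes were expressed. CG30161 and CG34214 were measured but not expressed. CG4806, Mmp1, SiaT and lncRNA:CR44828 had no probe set of their own and were not read. The neighbour CG33228 had 8.78, 9.56 and 8.65 in pof-mutant, against 8.36, 8.18 and 8.38 in wild type, and rose by 0.69 (SE 0.17, limma adjusted p = 0.0262), with the same order of arrays as Pof. ND-19, Mid1 and Usp15-31 overlapped wild type, with log2 ratios of -0.53, -0.18 and 0.10. The call of CG33228 was lost without pof-mutant replicate 2 (0.172) or wild type replicate 1, 2 or 3 (0.0737, 0.125 and 0.0656).

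Genes known only by CG numbers were left out by the naming rule outside chromosome 4. Among the genes named there, the largest changes that held in all 3 arrays were decreases. The filter on the wild type mean kept genes that were low in pof-mutant only and dropped genes low in wild type only. That lean to decreases can therefore in part be set by the filter. Srg2 had 5.36, 5.33 and 5.26 in pof-mutant, against 8.14, 8.58 and 9.62 in wild type, and fell by 3.47 (SE 0.41, limma adjusted p = 1.35e-05), to 9.05% of wild type. The 3 pof-mutant levels lay within 0.2 of each other, and the wild type levels were the ones that varied. Those 3 levels lay under 6, and the paper treats only levels above 6 as reliably measured. This limits what the size of the fall and the agreement of the 3 arrays can show. The same limit holds for genes below with pof-mutant levels near or under 6, among them Pepck2, plum, BomBc3 and ND-B8. Pepck2, which encodes a phosphoenolpyruvate carboxykinase of gluconeogenesis, had 6.34, 5.29 and 6.25, against 8.95, 9.31 and 9.12 in wild type, and fell by 3.16 (SE 0.29, adjusted p = 5.28e-07). For plum, an immunoglobulin superfamily gene required for the remodelling of neurons, the levels were 4.50, 4.36 and 5.01 in pof-mutant and 7.73, 8.04 and 7.50 in wild type (log2 ratio -3.13, SE 0.27, adjusted p = 1.8e-07). Muc68D, a mucin gene, had 8.33, 6.11 and 8.08, against 10.30, 11.30 and 10.28 in wild type (log2 ratio -3.12, SE 0.42, adjusted p = 8.86e-05). Here replicate 2 was the lowest by more than 2-fold, and the other arrays alone were 4-fold or more below wild type.

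**Figure D4:**
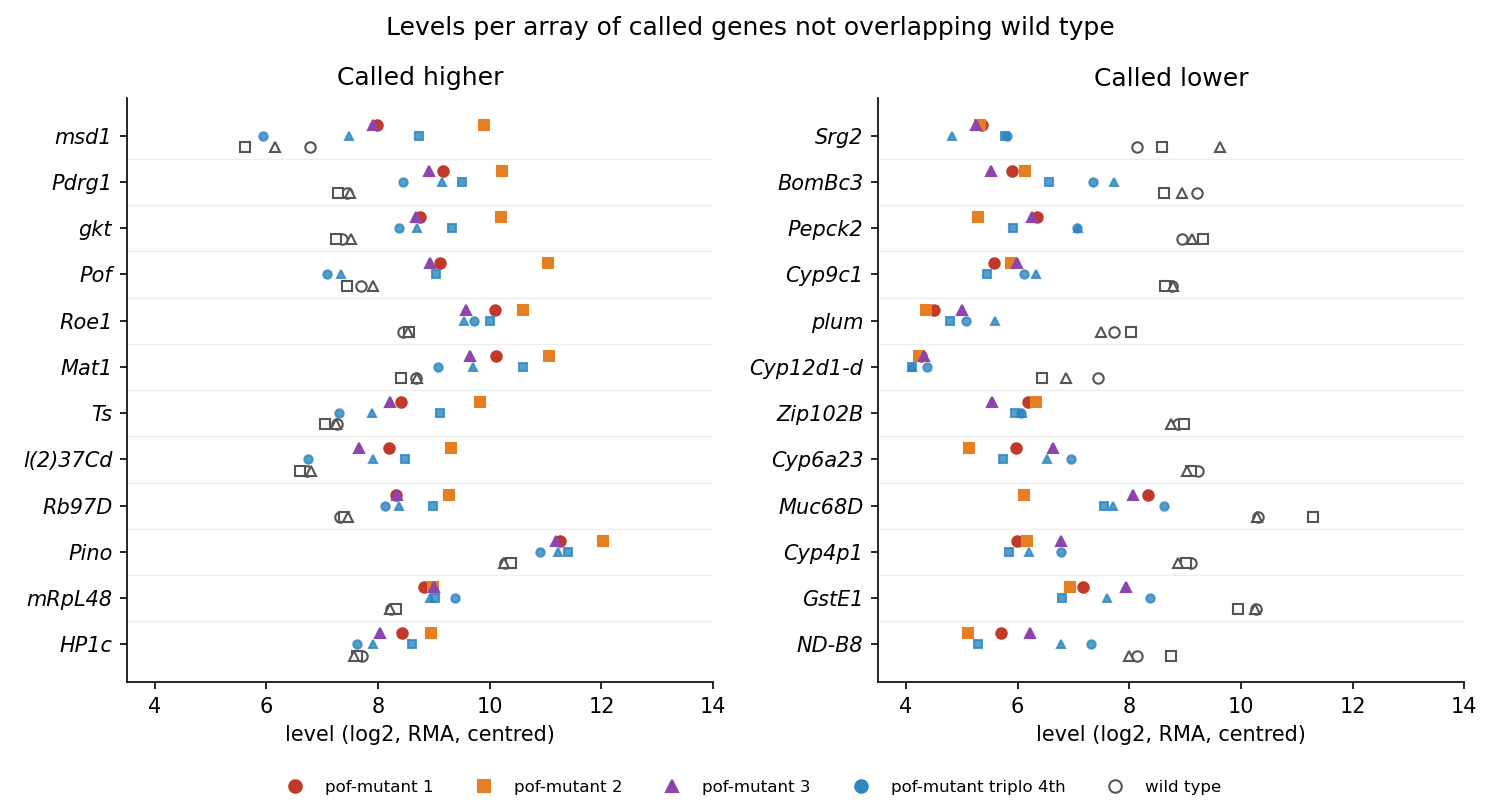
Levels (log2) in single arrays of the 12 genes called higher (left panel) and the 12 called lower (right panel) whose pof-mutant array nearest to wild type was farthest from it, among the genes named by rule. For each gene the pof-mutant arrays are in the upper line, the pof-mutant triplo 4th arrays in the middle and the wild type arrays (open) in the lower line, with circles, squares and triangles for replicates 1, 2 and 3; pof-mutant replicate 2 is the highest of the pof-mutant arrays for every gene on the left but mRpL48, and is not set apart for Srg2, Cyp9c1 or Zip102B on the right.

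Cytochrome P450 genes, whose products oxidise foreign compounds and hormones, held 15 of the genes called lower. Of 55 expressed members, 15 were called lower and 0 higher (2.42% and 1.35% of all expressed genes), and 22 lay below wild type in all 3 arrays (8.73% of all expressed genes). At an unadjusted limma p under 0.05, 29 were lower and 3 higher (35.8% of all expressed genes in either direction). Cyp9c1 had 5.58, 5.88 and 5.98 in pof-mutant, against 8.77, 8.65 and 8.79 in wild type, and fell by 2.92 (SE 0.22, limma adjusted p = 3.24e-08). Cyp4p1 had 5.99, 6.16 and 6.78, against 9.11, 9.01 and 8.87 in wild type (log2 ratio -2.69, SE 0.21, adjusted p = 4.43e-08), and its neighbour Cyp4p2 was called as well. In both genes the 3 pof-mutant arrays lay close together, unlike the arrays as a whole. Like those of Cyp9c1 and of Cyp12d1-d below, these levels lay near or under 6, and the paper treats only levels above 6 as reliably measured. Cyp6a23 had 5.97, 5.14 and 6.64, against 9.23, 9.11 and 9.03 in wild type (log2 ratio -3.20, SE 0.33, adjusted p = 2.03e-06). Cyp12d1-d, which has a near-identical tandem copy that probes may not tell apart, had 4.27, 4.24 and 4.33, against 7.44, 6.43 and 6.87 in wild type (log2 ratio -2.64, SE 0.21, adjusted p = 3.87e-08). It ranged between 4.37 and 9.17 in the 18 arrays of the 6 other genotypes. The count called lower was 7 without pof-mutant replicate 2, 34 without replicate 3 and 9, 8 and 9 without wild type replicates 1, 2 and 3. Without pof-mutant replicate 3, 1765 of all 7386 expressed genes were called lower. Called without each of the 6 arrays in turn were 7 of the 15, namely Cyp12d1-d, Cyp4p1, Cyp4p2, Cyp6a21, Cyp6a23, Cyp6a9 and Cyp9c1. With the spread taken from the 6 arrays alone, 4 were called lower. The median log2 ratio of the 55 genes was -0.63, -1.53 and -0.13 in pof-mutant replicates 1, 2 and 3, against 0.04, 0.26 and -0.00 for all expressed genes in the same arrays and -0.02, 0.09 and -0.07 for the 55 in wild type.

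Genes of the conjugation step, the glutathione S-transferases and UDP-glycosyltransferases, moved in the same direction. Called lower were 13 of 46 expressed members and higher 1, Ugt35A1, and 17 lay below wild type in all 3 arrays (over all expressed genes 2.42% were called lower, 1.35% higher and 8.73% lay below). At an unadjusted limma p under 0.05, 20 were lower and 5 higher, against 35.8% of all expressed genes in either direction. GstE1 had 7.16, 6.94 and 7.95 in pof-mutant, against 10.28, 9.96 and 10.25 in wild type, and fell by 2.81 (SE 0.27, limma adjusted p = 7.03e-07). GstE5 had 5.50, 5.22 and 5.74, against 7.24, 7.25 and 7.30 in wild type (log2 ratio -1.78, SE 0.21, adjusted p = 1.35e-05). Ugt35C1 had 5.81, 5.97 and 6.46, against 8.31, 7.93 and 7.66 in wild type (log2 ratio -1.89, SE 0.26, adjusted p = 0.000102). Ugt35A1 went the other way, with 7.42, 7.35 and 8.12 in pof-mutant, against 6.70, 7.14 and 6.59 in wild type (log2 ratio 0.82, adjusted p = 0.0338), but was not called when arrays were centred on their median or when wild type replicate 1 or 3 was left out. Of the 13 called lower, 9 were called without each array in turn. Without pof-mutant replicate 3, 26 members were called lower, against 1765 of all 7386 expressed genes. With the spread taken from the 6 arrays alone, 1 was called lower. The list medians were -0.45, -1.18 and -0.08 in pof-mutant replicates 1, 2 and 3, against 0.08, -0.04 and -0.02 in wild type.

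Among immune effector genes, 5 of 24 expressed members were called lower and 0 higher (12 and 1 at an unadjusted limma p under 0.05, against 35.8% of all expressed genes), and 6 lay below wild type in all 3 arrays (over all expressed genes 2.42% were called lower, 1.35% higher and 8.73% lay below). BomBc3, a Bomanin gene of the class induced through the Toll pathway, had 5.90, 6.13 and 5.53 in pof-mutant, against 9.22, 8.61 and 8.94 in wild type (log2 ratio -3.07, SE 0.39, limma adjusted p = 3.37e-05), and the other Bomanin gene that held in all 3 arrays was BomT3, with 7.50, 6.26 and 8.44, against 9.75, 9.55 and 9.27 in wild type (log2 ratio -2.12, SE 0.38, adjusted p = 0.00235). These 2 were the members called without each array in turn. The count called lower was 2 without pof-mutant replicate 2, 15 without replicate 3 and 2 each without wild type replicate 1 or 3. Over all 7386 expressed genes, 1765 were called lower without pof-mutant replicate 3. With the spread taken from the 6 arrays alone, 1 member was called lower. Drsl4, a gene of the drosomycin family, had 8.22, 7.31 and 9.49, against 10.76, 10.11 and 10.49 in wild type (adjusted p = 0.0191), and lost its call without pof-mutant replicate 2 (0.175) or wild type replicate 1 or 3 (0.0915 and 0.0652). The antimicrobial peptide gene Drs had 12.86, 12.03 and 12.63 in pof-mutant, against 12.45, 11.79 and 12.25 in wild type, and overlapped. Replicate 3 differed from the others for the Bomanin genes BomBc2, BomS2, BomS6 and BomT2: the log2 ratios of the 4 genes were 0.08 to 0.59 in replicate 3, against -1.78 to -1.26 in replicate 1 and -3.71 to -3.38 in replicate 2.

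Further lists gave few calls, to be read beside the 2.42% of all expressed genes called lower and the 1.35% called higher. In the zinc list, 2 of 19 were called lower, Zip102B and the metallothionein gene MtnB, which had 7.14, 7.24 and 8.31 in pof-mutant, against 10.04, 10.02 and 9.71 in wild type (log2 ratio -2.36, SE 0.42, limma adjusted p = 0.00228). No ZnT exporter gene was called in either direction, and the ZIP importer genes other than Zip102B had log2 ratios of -0.52 to 0.42. With median centring or no centring of the arrays, 4 genes of this list were called lower. In the oxidative phosphorylation list, 1 of 54 was called, ND-B8, a complex I subunit gene, with 5.70, 5.11 and 6.22, against 8.14, 8.74 and 8.01 in wild type (log2 ratio -2.62, SE 0.36, adjusted p = 8.86e-05). Most of that list lay on 1 side. Of its 54 genes, 53 were under the wild type mean in replicate 1, 53 in replicate 2 and 41 in replicate 3. The medians were -0.45, -1.23 and -0.06. At an unadjusted limma p under 0.05, 46 were lower and 0 higher, against 35.8% of all expressed genes in either direction. Without pof-mutant replicate 3, 49 were called lower, against 1765 of all 7386 expressed genes. In the mitochondrial ribosomal list, 1 of 69 was called higher, mRpL48, with 8.81, 8.98 and 8.99, against 8.24, 8.32 and 8.21 in wild type (log2 ratio 0.67, SE 0.14, adjusted p = 0.0088), and its 3 pof-mutant arrays agreed within 0.2. The 18 arrays of the 6 other genotypes lay between 8.44 and 9.02, above all 3 wild type arrays and around the pof-mutant levels. Wild type was therefore the group that stood apart for mRpL48.

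Called lower were also LysP, a lysozyme gene, and Npc2g, of a sterol-binding family, among 41 gut genes. So were the cuticle protein genes Cpr47Ea and Cpr47Ee among 46 and the odorant-binding protein genes Obp57a and Obp57c among 23. Of all expressed genes 2.42% were called lower, and the log2 ratios of these 6 genes were -2.37 to -1.35. Each of these 6 calls was lost without at least 1 array, Obp57a without wild type replicate 2 alone (adjusted p = 0.0637) and LysP and Cpr47Ee without pof-mutant replicate 2 (0.0740 and 0.0584) or wild type replicate 2 (0.0613 and 0.0522). The others were lost without pof-mutant replicate 2, with adjusted p = 0.235 for Npc2g, 0.207 for Cpr47Ea and 0.352 for Obp57c, and without each of the wild type arrays (0.0577 to 0.139).

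Most genes called higher had all 3 arrays above wild type (98 of 100) and the largest difference in replicate 2 (94 of 100). Pdrg1, which encodes a prefoldin-like protein, had 9.17, 10.22 and 8.91 in pof-mutant, against 7.44, 7.28 and 7.50 in wild type, and rose by 2.03 (SE 0.26, limma adjusted p = 3.37e-05). The gene gkt, which encodes the DNA repair enzyme tyrosyl-DNA phosphodiesterase, had 8.75, 10.20 and 8.67, against 7.35, 7.24 and 7.51 in wild type (log2 ratio 1.84, SE 0.29, adjusted p = 0.000588). Replicates 1 and 3 of these genes lay within 0.3 of each other. Roe1, which encodes the nucleotide exchange factor of mitochondrial Hsp70, had 10.10, 10.60 and 9.58, against 8.45, 8.56 and 8.53 in wild type (log2 ratio 1.58, SE 0.18, adjusted p = 1.35e-05). Mat1, a subunit gene of the kinase module of TFIIH, had 10.11, 11.06 and 9.65, against 8.67, 8.41 and 8.70 in wild type (log2 ratio 1.68, SE 0.33, adjusted p = 0.00496). Rb97D, an RNA-binding protein gene, and Pino rose by 1.26 (SE 0.23, adjusted p = 0.00279) and 1.19 (SE 0.21, adjusted p = 0.00235). These 6 genes were called without each array in turn, with the spread still taken from all groups. With the spread taken from the 6 arrays alone, none of them passed. The limma adjusted p was then 0.229 for Pdrg1, 0.257 for Roe1 and 0.478 for gkt, Mat1, Rb97D and Pino.

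The calls of msd1, Ts and l(2)37Cd were lost without single arrays. For msd1, a gene of the spindle augmin complex, levels were 7.98, 9.90 and 7.91 in pof-mutant, against 6.78, 5.62 and 6.16 in wild type (log2 ratio 2.41, SE 0.59, limma adjusted p = 0.0253), with adjusted p = 0.230 without pof-mutant replicate 2 and 0.130 and 0.0801 without wild type replicate 2 or 3. Ts, the thymidylate synthase gene, and l(2)37Cd rose by 1.63 and 1.68 (adjusted p = 0.0181 each), with adjusted p = 0.157 and 0.166 without pof-mutant replicate 2 and 0.0547 to 0.0699 without 1 of the wild type arrays. Each of the 3 had all pof-mutant arrays above all wild type arrays, but the rule that named them required this.

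The largest increases were those of CG6283 and CG6295, near each other on 3R, which the rule for named genes leaves out and which were picked after their values were seen. CG6283 had 8.69, 9.42 and 9.42 in pof-mutant, against 6.24, 6.07 and 6.05 in wild type, and rose by 3.06 (SE 0.31, limma adjusted p = 1.56e-06). It was the gene called higher with the 6 arrays alone. CG6295 had 12.45, 9.90 and 11.10, against 7.41, 8.80 and 7.57 in wild type (log2 ratio 3.23, SE 0.77, adjusted p = 0.0206). In the 18 arrays of the 6 other genotypes CG6283 lay between 7.15 and 10.26, above all 3 wild type arrays, and CG6295 between 6.31 and 12.68.

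Where the other genotypes lay differed from gene to gene. The 3 pof-mutant arrays were below all 21 arrays with no pof label for 194 genes (2.63%), 78 of them among the 176 genes called lower and below wild type, and above all 21 for 235 genes (3.18%), 34 of them among the 98 called higher. Srg2 (7.90 to 10.55 in the 18 arrays of other genotypes), Cyp4p1 (8.72 to 9.68) and GstE1 (9.19 to 10.23) were of the first kind, and gkt (6.15 to 7.65) and Pdrg1 (7.13 to 8.03) of the second. For MtnB, LysP and Roe1 the 18 arrays reached into the pof-mutant levels, with MtnB at 6.77 to 10.02, LysP at 6.49 to 9.68 and Roe1 at 8.02 to 10.05.

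Set against the same wild type arrays, the pof-mutant triplo 4th arrays had 33 genes called higher (0.447%) and 71 lower (0.961%), with these log2 ratios for the genes above. Srg2 stood at -3.31, Pepck2 at -2.44, Cyp9c1 at -2.77, plum at -2.60, Cyp4p1 at -2.71 and GstE1 at -2.57 (limma adjusted p from 5.05e-08 to 3.33e-05). Their ratios in pof-mutant were -3.47, -3.16, -2.92, -3.13, -2.69 and -2.81. Not passing in triplo 4th were BomT3 at -0.997, Npc2g at -1.02, Obp57c at -1.55, Cpr47Ea at -1.88, Drsl4 at -1.70, LysP at -1.42, Cpr47Ee at -1.14 and Pur-alpha at -0.41 (limma adjusted p from 0.0877 to 0.865), with -2.12, -1.65, -2.09, -2.37, -2.11, -1.84, -1.54 and -0.92 in pof-mutant. Among increases, Pdrg1 stood at 1.63, gkt at 1.43, Roe1 at 1.24, Rb97D at 1.11 and Pino at 0.87. Their limma adjusted p values were 0.000675, 0.0103, 0.000355, 0.0122 and 0.0442. Mat1, at 1.20 with adjusted p = 0.085, did not pass. Nor did msd1, Ts, l(2)37Cd and HP1c, which stood at 1.20, 0.91, 1.01 and 0.41 with adjusted p of 0.373 or more.

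Genes for chromosome-wide regulators and heterochromatin proteins differed more between arrays than between groups. Of 15 expressed members, 2 were called higher, Pof and HP1c, a paralogue of heterochromatin protein 1, and 0 lower, against 1.35% and 2.42% of all expressed genes (9 and 0 at an unadjusted limma p under 0.05, against 35.8% in either direction). HP1c had 8.43, 8.95 and 8.03 in pof-mutant, against 7.70, 7.62 and 7.56 in wild type, and rose by 0.84 (SE 0.21, limma adjusted p = 0.0275), with adjusted p = 0.230 without pof-mutant replicate 2 and 0.0737, 0.0903 and 0.0961 without wild type replicate 1, 2 or 3. The gene rhi, a germline member of the same family, had 8.37, 9.98 and 7.71, against 6.86, 6.43 and 7.14 in wild type (adjusted p = 0.0704). All 15 were over the wild type mean in replicates 1 and 2, but 8 in replicate 3, with medians of 0.63, 1.58 and 0.07. Without pof-mutant replicate 3, 14 were called higher, against 2586 of all 7386 expressed genes.

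Markers of ovary and other tissues also differed between the arrays, and their part in the results above was not tested. Of 33 expressed female germline genes, 0 were called by limma (over all expressed genes 1.35% were called higher and 2.42% lower). At an unadjusted limma p under 0.05, 3 were higher and 1 lower, against 35.8% of all expressed genes in either direction. The list medians were 0.64, 1.63 and -0.25 in pof-mutant replicates 1, 2 and 3, against 0.01, -0.24 and 0.23 in wild type. The maternal transcript of bcd, the anterior determinant, had 10.09, 11.78 and 9.22 in pof-mutant, against 9.01, 8.31 and 9.40 in wild type. The small RNA pathway gene piwi and the cell cycle regulator png lay above wild type in all 3 arrays without passing (log2 ratios 0.77 and 1.31). The yolk protein gene Yp2 had 13.82, 9.58 and 12.18, against 13.42, 13.44 and 13.44 in wild type, so replicate 1 was over wild type and the others under it.

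Eggshell genes differed widely between arrays of both groups. Of 19 expressed vitelline membrane and chorion genes, 0 were called by limma (over all expressed genes 1.35% were called higher and 2.42% lower). At an unadjusted limma p under 0.05, 0 were higher and 2 lower, against 35.8% of all expressed genes in either direction. Medians were 1.48, -2.75 and -0.81 in pof-mutant, against -0.91, -0.15 and 0.78 in wild type. The vitelline membrane gene Vm26Aa, active before the chorion genes, had 13.84, 6.09 and 10.30 in pof-mutant, against 13.03, 13.41 and 13.76 in wild type. The chorion gene Cp36 had 12.08, 5.36 and 11.04, against 5.86, 5.50 and 12.96 in wild type. Wild type replicate 3 was therefore apart from the other wild type arrays for Cp36 but not for Vm26Aa.

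Muscle, larval storage and cuticle genes had their lowest pof-mutant medians in replicate 2. Of 23 muscle genes, 0 were called by limma (over all expressed genes 1.35% were called higher and 2.42% lower). At an unadjusted limma p under 0.05, 10 were lower and 0 higher, against 35.8% of all expressed genes in either direction. The muscle medians were -0.43, -2.64 and 0.16 in pof-mutant, against -0.01, 0.17 and -0.17 in wild type. TpnC4, a troponin C gene of flight muscle, had 10.85, 8.65 and 12.22, against 12.31, 12.45 and 11.99 in wild type. The larval storage protein gene Lsp2, whose transcript falls after eclosion, had 12.55, 7.34 and 12.27 in pof-mutant, against 13.28, 11.25 and 13.28 in wild type, so replicate 2 was the lowest array in each group. For cuticle genes, 2 of 46 were called lower (2.42% of all expressed genes) and 17 lay below wild type in all 3 arrays (8.73% of all expressed genes). At an unadjusted limma p under 0.05, 20 of them were lower and 0 higher. The cuticle medians were -0.68, -2.19 and -0.08. Markers of male tissue stayed low, with 1 of 56 measured genes expressed and mean levels of 4.15, 4.30 and 4.15 over the list in pof-mutant replicates 1, 2 and 3.

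**Figure D5:**
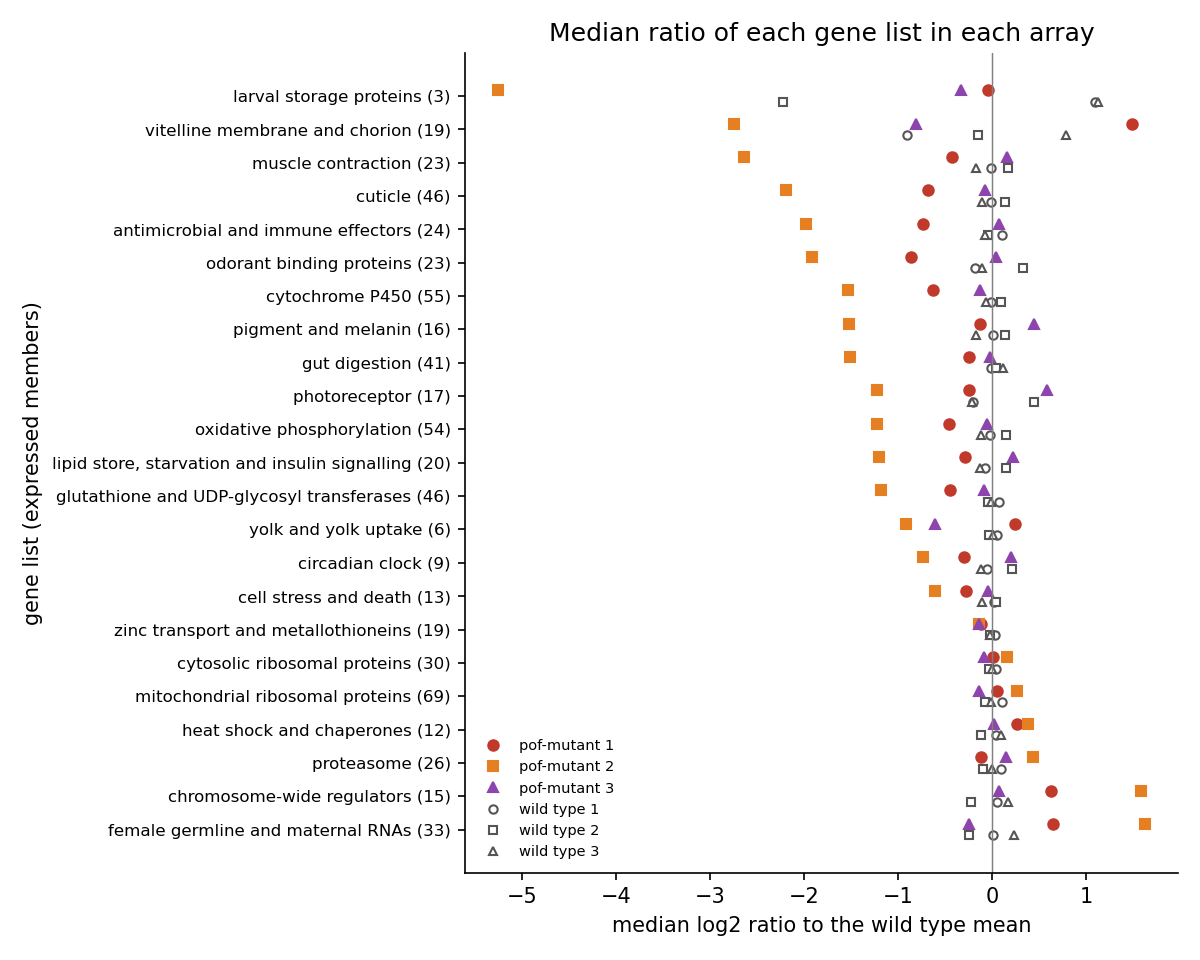
Median log2 ratio to the wild type mean of the expressed members of each gene list (number in brackets) in the 3 pof-mutant arrays (filled, upper line) and the 3 wild type arrays (open, lower line). Replicate 2 was the outermost pof-mutant array for most lists, from -5.26 for larval storage proteins to 1.63 for female germline genes, while replicate 3 lay nearer to 0 for most.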

How the data were processed

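Affymetrix Drosophila version 2 arrays of 27 samples in 9 groups of 3 were used. Per the authors' methods, the deposited log2 values were made by robust multi-array analysis (RMA); whether all arrays were normalized together is not stated. No scanner intensities or scan dates were used, and precision is set by the number of arrays. Of 18952 probe sets, 13646 named 1 gene, 402 several and 4904 none, and 13634 matched the gene table (assembly release 6). Each gene was read from its brightest probe set on average across the series. Genes with a wild type mean above 6 were kept and each array was centred on its mean over them; the study shifted the mutant arrays to the wild type total, and here the wild type arrays were shifted too. limma 3.58.1 (R 4.3.3) fitted 1 mean per group over 27 arrays. It was tested on simulated data with the same spread in every group, which does not cover pof-mutant arrays that varied more than the others. Tables and figures used Python 3.11.15. Genes were named by rule, starting with Pof and the 5 genes on each side. Then came those whose array nearest to wild type was farthest from it. These were the 8 lowest and 4 highest on chromosome 4 and the 10 highest and 10 lowest called genes elsewhere. Both sets were taken without overlap, with no CG or CR numbers outside chromosome 4. Up to 3 called genes per list were added. Members, lists and rules were chosen with earlier results of these data known. Alternatives changed the arrays, spread, weights, centring, filter and probe sets. Same-numbered arrays of the 2 groups did not deviate together (r = -0.13, -0.36 and -0.48), so the numbers were not used as pairs.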

Additional observations from a re-analysis of the deposited data

How the results depend on the processing

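The counts of genes called higher and lower (100 and 179) depended most on the arrays and on how their spread was estimated. They were 1 and 15 with the 6 arrays only, 3 and 19 with 5 arrays without pof-mutant replicate 2 (chosen after seeing the data), 42 and 113 with a wild type mean above 8, where fewer genes were tested, and 81 and 155 with a replicate block, with 78 and 151 of the calls shared, although the numbers do not pair the arrays. Array weights, whose fit stopped before it converged, gave 0 and 1, and gene-by-gene weights, added after seeing the data, gave 2426 and 2024. Leaving out 1 array gave 29 to 2586 genes higher and 88 to 1765 lower. Restricted to genes that did not overlap wild type (98 and 176), the counts were 1 and 15, 3 and 19, 42 and 113, 0 and 1, and 794 and 542 in these settings, and 29 to 2505 and 88 to 1679 without 1 array. On chromosome 4, the count called lower (2) was 1 with the 6 arrays, the 5 arrays, array weights, the replicate block and no probe sets ending in _s_at or _x_at, 3 with median centring or a wild type mean above 8, 32 with gene-by-gene weights (6 higher, against 0), and 1 to 25 without 1 array (0 to 8 higher). Its mean log2 ratio of -0.45 was -0.092 with array weights. Median centring moved the median ratio of all genes to -0.08, against 0.06. Of 49 named genes, Mid1 turned to 0.25 with array weights and lay between -0.35 and 0.012 without 1 array, turning without wild type replicate 2. Usp15-31 turned to -0.17 with array weights, -0.035 with median centring and -0.11 with the 5 arrays, and lay between -0.11 and 0.27 without 1 array, turning without pof-mutant replicate 2. The other 847 of 853 gene and setting combinations kept their direction, and 686 also their side of the threshold. The causes were not tested.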

Other observations

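Below the expression filter, 190 genes had a mean above 6 in pof-mutant but not in wild type, a choice that fixes their direction, so their values are given with no test. The highest log2 ratio was that of Cyp6a17, the cytochrome P450 gene next to Cyp6a23, with 8.24, 8.17 and 9.003 in pof-mutant, against 4.64, 4.88 and 4.51 in wild type (log2 ratio 3.80). The 18 arrays of the 6 other genotypes lay between 7.49 and 8.37, so wild type was the group that stood apart for Cyp6a17. For Cyp6a23 the 18 arrays lay between 7.01 and 9.95, and the pof-mutant arrays were the lowest. The 2 genes are similar in sequence, and their probe sets may share signal.

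Of these, tut, MED4, cid and Orc2 had replicate 2 as the highest array, while CG42857, CG4650 and CG2065 did not. The gene tut, which encodes a partner of the germline differentiation factor bam, had 7.16, 8.48 and 6.54 in pof-mutant, against 4.59, 4.75 and 4.63 in wild type (log2 ratio 2.73). MED4, a Mediator subunit gene, had 7.47, 8.79 and 6.79, against 6.06, 5.72 and 5.79 in wild type (log2 ratio 1.83). The centromere histone gene cid and the replication origin gene Orc2 had 7.75, 9.21 and 6.65 and 7.44, 8.97 and 6.78 in pof-mutant, against 5.74, 5.07 and 6.26 and 5.77, 5.08 and 6.39 in wild type. CG42857 had 8.72, 8.31 and 4.53 in pof-mutant, so the mean was carried by replicates 1 and 2. These genes were picked after their values were seen.

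In the circadian list, 0 of 9 genes were called by limma (over all expressed genes 1.35% were called higher and 2.42% lower). At an unadjusted limma p under 0.05, 2 were higher and 2 lower, against 35.8% of all expressed genes in either direction. The clock activator gene Clk had 7.77, 6.98 and 8.18 in pof-mutant, against 6.01, 6.76 and 6.08 in wild type, while the clock repressor gene vri had 7.69, 7.57 and 8.35, against 8.54, 8.84 and 8.39. Neither overlapped wild type, and the hour of collection is not given in the sources used here.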
